A study of Homo sapiens with 6 samples.

Results

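Type I interferon-induced genes were compared between KYSE30 cells given a control siRNA and KYSE30 cells labelled as given an siRNA against MTA2. The genes were 39 well-known members of the response, taken by the symbol that the authors deposited for each array row. They were represented by 72 of the 34558 rows, and averaging the log2 values of rows with the same symbol left 39 of 19148 genes. Of the 39, 22 had 1 row, 17 had 2 or more, and the largest number was 6 (PARP9).

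Type I interferons are secreted by cells that sense viral nucleic acid, and act on neighbouring cells through a receptor made of IFNAR1 and IFNAR2. The receptor's kinases JAK1 and TYK2 phosphorylate STAT proteins, and the factor ISGF3, which includes STAT2 and IRF9, is formed. ISGF3 binds the interferon-stimulated response element (ISRE) in the promoters of its targets, whose products block entry, translation, replication or release of viruses. Many epithelial tumour lines express part of this programme without added interferon. MTA2 is a subunit of NuRD, a chromatin remodelling and histone deacetylase complex.

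KYSE30 is an established human cell line from an oesophageal squamous cell carcinoma. Samples 1 to 3 received the control siRNA and samples 4 to 6 the siRNA labelled as MTA2, at 20 nmol/ml (the unit as printed in the labels) with Lipofectamine for 48 h, and no sample was labelled as given interferon. Control samples 1 and 3 and MTA2 siRNA sample 5 are labelled Cy3, while control sample 2 and MTA2 siRNA samples 4 and 6 are labelled Cy5. The labelling protocol names a single-colour kit, which is at odds with the Cy3 and Cy5 labels. A dye difference here is therefore a difference between samples by that label, and whether dye itself differed was not tested. The labels do not say that the samples came from separate cultures. The p-values therefore reflect only the variation among these 6 samples, which could be technical.

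The siRNAs define the comparison, and their strands are given 5′ to 3′ as the labels print them, with bases 2 to 8 of the antisense strand, its seed, in capitals.
control siRNA sense: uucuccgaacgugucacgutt
control siRNA antisense: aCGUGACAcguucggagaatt
MTA2 siRNA sense: ggugggagauuacgucuautt
MTA2 siRNA antisense: aUAGACGUaaucucccacctt
The seeds of the antisense strands differ. Double-stranded RNA can itself be sensed by the interferon system, and an untransfected sample was not analysed here, so a response that both siRNAs share cannot be seen in this comparison.

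The promoters show what most of these genes have in common at the sequence level. RefSeq promoter windows (GRCh38.p14, 250 bases before to 50 after each annotated start) were matched by symbol for 30 of the 39 genes, in 40 windows. The ISRE core (GAAA, then any 2 bases, then GAAA), searched on both strands, lay in 24 of the 40 windows (60%) and in 1255 of all 35116 windows (3.57%). By gene, 20 of 30 (66.7%) had a match, against 4.38% of all genes in that table. The gamma-activated site TTCNNNGAA, a palindromic motif bound by STAT dimers, lay in 11 of the 40 windows (27.5%) and in 7.66% of all windows. TATAAA, the TATA box, lay in 5 of the 40 (12.5%) and in 11.5% of all windows. A match describes the letters and is not a measured binding site.

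IFITM1 and IFITM3 are shown because they are neighbouring paralogs on opposite strands that gave unlike readings, as described below. Each window below runs from 250 bases before to 10 after the start in RefSeq, 5′ to 3′ on the gene's own strand, with ISRE cores in capitals. IFITM1 is at chr11:313790-314049 on the plus strand and IFITM3 at chr11:320851-321110 on the minus strand of GRCh38.p14.
IFITM1: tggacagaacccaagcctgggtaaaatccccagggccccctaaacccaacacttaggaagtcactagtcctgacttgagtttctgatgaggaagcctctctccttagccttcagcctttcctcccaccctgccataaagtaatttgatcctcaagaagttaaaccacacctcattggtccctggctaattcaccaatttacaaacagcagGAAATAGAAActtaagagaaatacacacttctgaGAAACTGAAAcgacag
IFITM3: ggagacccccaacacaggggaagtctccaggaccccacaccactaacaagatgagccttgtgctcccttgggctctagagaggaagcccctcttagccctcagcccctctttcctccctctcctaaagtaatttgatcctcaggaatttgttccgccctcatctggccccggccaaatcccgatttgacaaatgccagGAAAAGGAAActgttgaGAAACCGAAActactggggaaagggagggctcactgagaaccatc
Both windows hold 2 ISRE cores close to the start, and 186 of 280 alignment columns (66.4%) were identical.

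Single ISRE cores of IFIT and OAS genes are shown for the side by side comparison of those families, each in 30 bases of the gene's strand with the core in capitals. They are at chr10:89327831-89327860 for IFIT3, chr10:89392497-89392526 for IFIT1, chr10:89414513-89414542 for IFIT5 and chr12:112938321-112938350 for OAS3, all on the plus strand of GRCh38.p14.
IFIT3: agccgttaggTTTCATTTTCctcctcccaa
IFIT1: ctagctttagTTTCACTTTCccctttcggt
IFIT5: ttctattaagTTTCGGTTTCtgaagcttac
OAS3: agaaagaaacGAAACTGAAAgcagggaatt
The core in the IFIT genes lies on the opposite strand and so reads as its reverse complement, while that of OAS3 reads forward. The window of OAS1 held no match to this spelling. Windows of OAS1, DDX58 and XAF1 held gaaacgaaa, with a shorter gap between the GAAA units. With the same gap, the window of IFI35 held gaaatgaaa and a window of SP110 held gaaaagaaa. All of these genes were counted as without a core. The split that follows is therefore by exact spelling. The 20 genes with a core had a median difference between the siRNAs of -0.038 on the log2 scale (from -0.42 to 0.79), and the 10 with a window but no core had a median of 0.050 (from -0.41 to 0.21), so the ranges overlapped.

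The check of the targeted gene bears on every direction below. The control mean of MTA2 was 13.02 ± 0.10 (SD, n = 3) and that of the other group 13.27 ± 0.22 (SD, n = 3), so they differed by 0.26 (SE 0.17, 95% interval -0.16 to 0.67, limma adjusted p = 0.943). The targeted RNA was therefore not measured as lower, and groups are named here as labelled. Column medians lay between 10.44 and 10.45, and control sample 1 and MTA2 siRNA sample 4 held the most rows under 5 (375 and 271, against 29 to 87 elsewhere). Of 10 squamous epithelial markers, 8 lay above the median gene level, as did 5 of 12 leukocyte and 6 of 10 fibroblast markers. Levels of different rows depend on their own probes, so these counts do not rank cell types. The summed leukocyte level was 124.1 to 125.8 in the controls and 122.4 to 126.8 in the other group, and the groups also overlapped for the squamous list. The summed fibroblast level was 105.4 to 108.7 against 108.3 to 110.1, which overlapped as well. RNA was pooled over all cells of a sample, so a small change in every cell and a large change in a few cannot be told apart.

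None of the 39 genes differed between the siRNA groups at an adjusted p of 0.05 (limma, Benjamini-Hochberg over 19148 genes, lowest adjusted p = 0.943), and neither did any other gene (0%). At an unadjusted limma p under 0.05 there was 1 of 39 (2.56%), IFITM3, beside 3.75% of all genes. With dye in the model there were 3 (7.69%), beside 4.95% of all genes: IFITM3, higher, and DDX58 and IFIH1, lower, with a lowest adjusted p of 0.874 (limma). The groups did not overlap for 5 of 39 (12.8%), beside 9.43% of all genes. Those 5, IFITM3, IFIT1, OAS1, IRF7 and TRIM22, all read higher in the samples labelled MTA2 siRNA, against 5.43% of all genes in that direction. No member was lower without overlap, against 4.00% of all genes. Where groups do not overlap, the sign within each dye and with a sample left out is already fixed, so those values below give sizes only. The exact permutation p is then at its minimum by construction. Within each dye, moreover, 1 of the groups has a single sample. The shares at the unadjusted threshold thus lay below the background without the dye term and above it with the term, each over a handful of genes.

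The centre of the list lay near that of all genes. Of the 39, 21 read higher and 18 lower, with a median difference of 0.035 and quartiles of -0.14 and 0.14, beside a median of 0.029 over all genes. With dye in the model the medians were 0.050 and 0.018. The size of difference these samples can bound was mostly under 2-fold. For 34 of 39 genes (87.2%) the whole 95% interval was inside a 2-fold difference up or down, beside 78.9% of all genes. The exceptions were IFITM2, IFITM3, IFIT2, HERC5 and RSAD2. An absolute difference under 0.25 was measured in 28 members, over 0.5 in 3 and over 1 in 1.

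**Figure D1:**
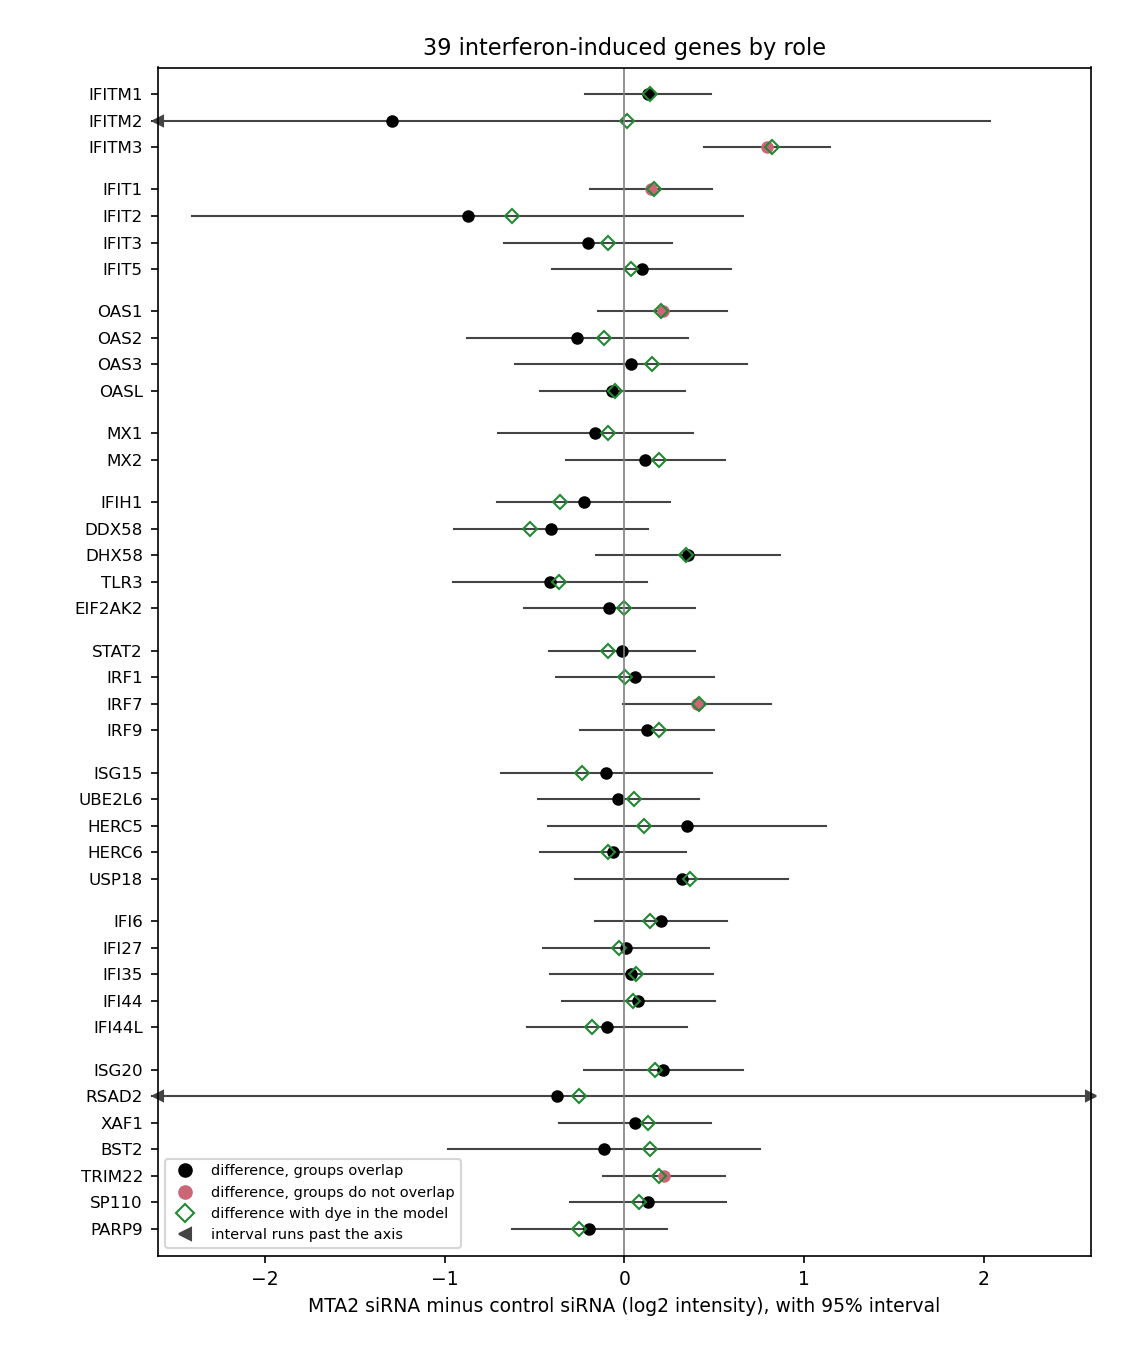
Differences between the groups for the 39 genes by role. The x axis is MTA2 siRNA minus control siRNA in log2 intensity, circles are limma differences from 3 against 3 samples with 95% intervals, red circles mark the 5 genes whose groups did not overlap, and open diamonds are the same difference with dye in the model. Intervals include 0 for 38 of the 39 genes, IFITM3 being the exception.

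The IFITM genes encode small membrane proteins that hinder fusion of enveloped viruses with the cell. IFITM3, which acts mainly in endosomes, read 10.42, 10.39 and 10.46 in the controls and 11.08, 11.30 and 11.28 in the samples labelled MTA2 siRNA. All 3 of the latter lay above all 3 controls. The means were 10.42 ± 0.035 and 11.22 ± 0.12 (SD, n = 3 each), a difference of 0.79 (SE 0.15, 95% interval 0.44 to 1.15), or 1.73-fold. By limma's p it was number 10 of all genes, but the limma adjusted p was 0.943. Its exact permutation p, two-sided, was 0.10, the smallest that 3 against 3 allow, as it must be without overlap. The size was 0.86 within Cy3, 0.78 within Cy5, 0.82 with dye in the model, and 0.75 to 0.86 with a single sample left out. Over all alternatives its adjusted p ranged from 0.509 to 1.00. IFITM3 was among the genes that earlier results of these data had pointed to, so its values are a description of these 6 samples.

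IFITM1, the paralog found mainly at the cell surface, read 15.63, 15.63 and 15.50 in the controls and 15.61, 15.80 and 15.74 in the other group. These values overlapped and lay near the top of the scale, whose highest value in any sample was 15.996. The difference was 0.13 (SE 0.15, 95% interval -0.22 to 0.48), and 0.23 within Cy3 and 0.047 within Cy5.

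IFITM2, the closest paralog of IFITM3, read 13.98, 10.04 and 13.93 in the controls and 9.88, 13.99 and 10.19 in the samples labelled MTA2 siRNA. The values fell into a high and a low set that followed the dye label and not the siRNA: samples 1, 3 and 5, labelled Cy3, were high, and samples 2, 4 and 6, labelled Cy5, were low. The mean was 13.97 in Cy3 and 10.03 in Cy5, and the fitted dye difference was -3.94 (SE 0.15, limma adjusted p = 0.00361 with siRNA in the model). With dye ignored the siRNA difference was -1.30 with an interval of -4.63 to 2.04. With dye in the model it was 0.016. The Cy3 samples gave 0.034 and the Cy5 samples -0.0016. IFITM2 had the second smallest dye p of all genes and the 19th largest dye difference. The dye difference kept its size with any sample left out (-3.87 to -4.004), and its adjusted p was over 0.05 without sample 1 (0.0577), 2 (0.0686), 3 (0.0508) or 5 (0.0812).

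Side by side within a sample, IFITM3 minus IFITM1 was -5.21, -5.23 and -5.04 in the controls and -4.54, -4.50 and -4.46 in the other group, a change of 0.66. IFITM1 lies near the top of the scale, where a change of its own could be compressed, and whether it was is not known. The change of 0.66 mostly repeats the separation of IFITM3. Its exact permutation p, two-sided, was 0.10, and 0.30 after Benjamini-Hochberg correction over the 3 pairs. IFITM3 minus IFITM2 changed by 2.09 and IFITM2 minus IFITM1 by -1.43, both carrying the dye pattern of IFITM2. These paralogs have similar coding sequences, and the sequences of the array features were not used here, so which transcripts each row detects was not tested.

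**Figure D2:**
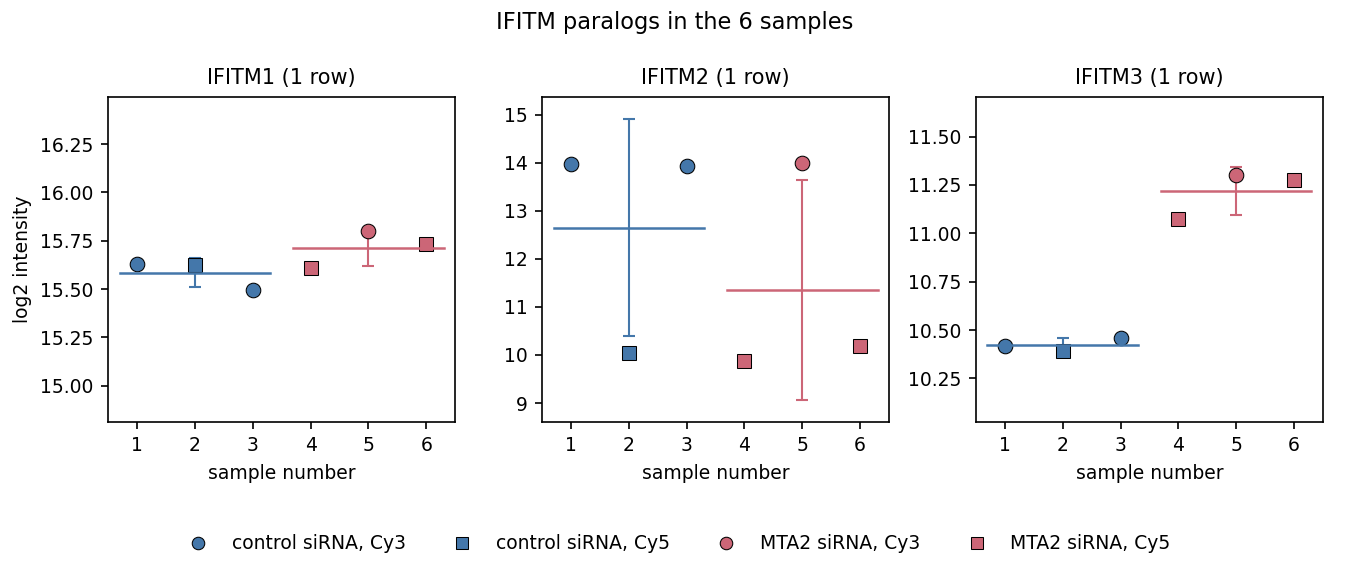
IFITM1, IFITM2 and IFITM3 in each sample. The y axis is log2 intensity and the x axis the sample number. Circles are Cy3, squares Cy5, blue the control siRNA, red the samples labelled MTA2 siRNA, and lines and bars the group mean and SD (n = 3). IFITM3 separates by siRNA (10.39 to 10.46 against 11.08 to 11.30), IFITM2 by dye (near 13.97 against 10.03), and IFITM1 by neither.

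The IFIT genes encode proteins that bind viral RNA and block its translation. Their 4 human members here lie in a cluster on chromosome 10, with 1 other protein-coding gene among them. None passed the adjusted threshold, and 2 read higher and 2 lower. IFIT1, which binds RNA lacking the methylation of host caps, read 9.80, 9.79 and 9.72 in the controls and 9.88, 10.01 and 9.87 in the samples labelled MTA2 siRNA. The groups did not overlap, yet the difference was 0.15 (SE 0.14, 95% interval -0.19 to 0.49). Its 5 rows differed by -0.06 to 0.36.

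IFIT2, which forms complexes with the other IFIT proteins, read 11.57, 11.28 and 11.49 in the controls and 11.43, 11.39 and 8.90 in the other group. A single sample, MTA2 siRNA sample 6, lay far below the other 5. The difference was -0.87 (SE 0.65, 95% interval -2.41 to 0.66), and -0.037 without that sample. It was -0.14 within Cy3 and -1.12 within Cy5, where sample 6 belongs.

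IFIT3, a partner that stabilises IFIT1 on RNA, read 10.35, 9.92 and 10.03 in the controls and 9.81, 10.16 and 9.71 in the other group. The groups overlapped (difference -0.20, SE 0.20). After averaging rows the dyes did not: all Cy3 values lay above all Cy5 values, with a fitted dye difference of -0.33 (SE 0.16, limma adjusted p = 0.332). Its 2 rows disagreed on this, with dye differences of -0.72 and 0.053, and in the latter the dyes overlapped. With dye in the model the siRNA difference was -0.093. IFIT5, which can also bind cellular RNA, read 10.80, 10.70 and 10.53 in the controls and 10.61, 10.56 and 11.16 in the other group, a difference of 0.096 (SE 0.21) with sample 6 the highest. After averaging rows, sample 6 was thus the lowest of the 6 for IFIT2 and IFIT3 and the highest for IFIT5. The 2 rows of IFIT3 disagreed on sample 6, which read 9.10 (the lowest) in one row and 10.33 (the highest) in the other.

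The OAS enzymes are activated by double-stranded RNA and make oligoadenylates that switch on RNase L. OAS1, OAS2 and OAS3 adjoin each other on chromosome 12, and OASL is a related protein without that activity in humans. Again none passed, with 2 higher and 2 lower. OAS1 read 12.29, 12.49 and 12.46 in the controls and 12.70, 12.67 and 12.51 in the samples labelled MTA2 siRNA. The groups did not overlap, by a margin of the second decimal, and the difference was 0.21 (SE 0.15, 95% interval -0.15 to 0.57). It was 0.29 within Cy3 and 0.12 within Cy5.

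The OAS1 value rests on 3 rows that did not move together, with differences of 0.51, 0.17 and -0.04. The row with 0.51 read 14.61, 15.31 and 15.24 in the controls and 15.33, 15.99 and 15.38 in the other group. Its highest value, in sample 5, is at the top of the scale, and its lowest, in control sample 1, stood apart from the other controls.

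OAS2 read 11.38, 11.15 and 11.09 in the controls and 10.83, 11.47 and 10.52 in the other group. After averaging rows, sample 5 was the highest and samples 4 and 6 the lowest, so the group labelled MTA2 siRNA spanned the controls. The difference was -0.26 (SE 0.26), at 0.24 within Cy3 and -0.47 within Cy5. Its 3 rows differed by -0.48, -0.29 and -0.005. The last of these, the brightest (mean 13.65), did not show the pattern: it read 13.44 to 13.81 in the controls and 13.62 to 13.68 in the other group. OAS3, the form with the highest affinity for long RNA, read 7.25, 6.497 and 6.96 in the controls and 6.52, 7.002 and 7.29 in the other group (difference 0.035, SE 0.27), which overlapped throughout. OASL, which enhances signalling by the sensor RIG-I, read 10.13, 10.01 and 9.73 in the controls and 9.82, 10.01 and 9.83 in the other group (difference -0.068, SE 0.17).

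**Figure D3:**
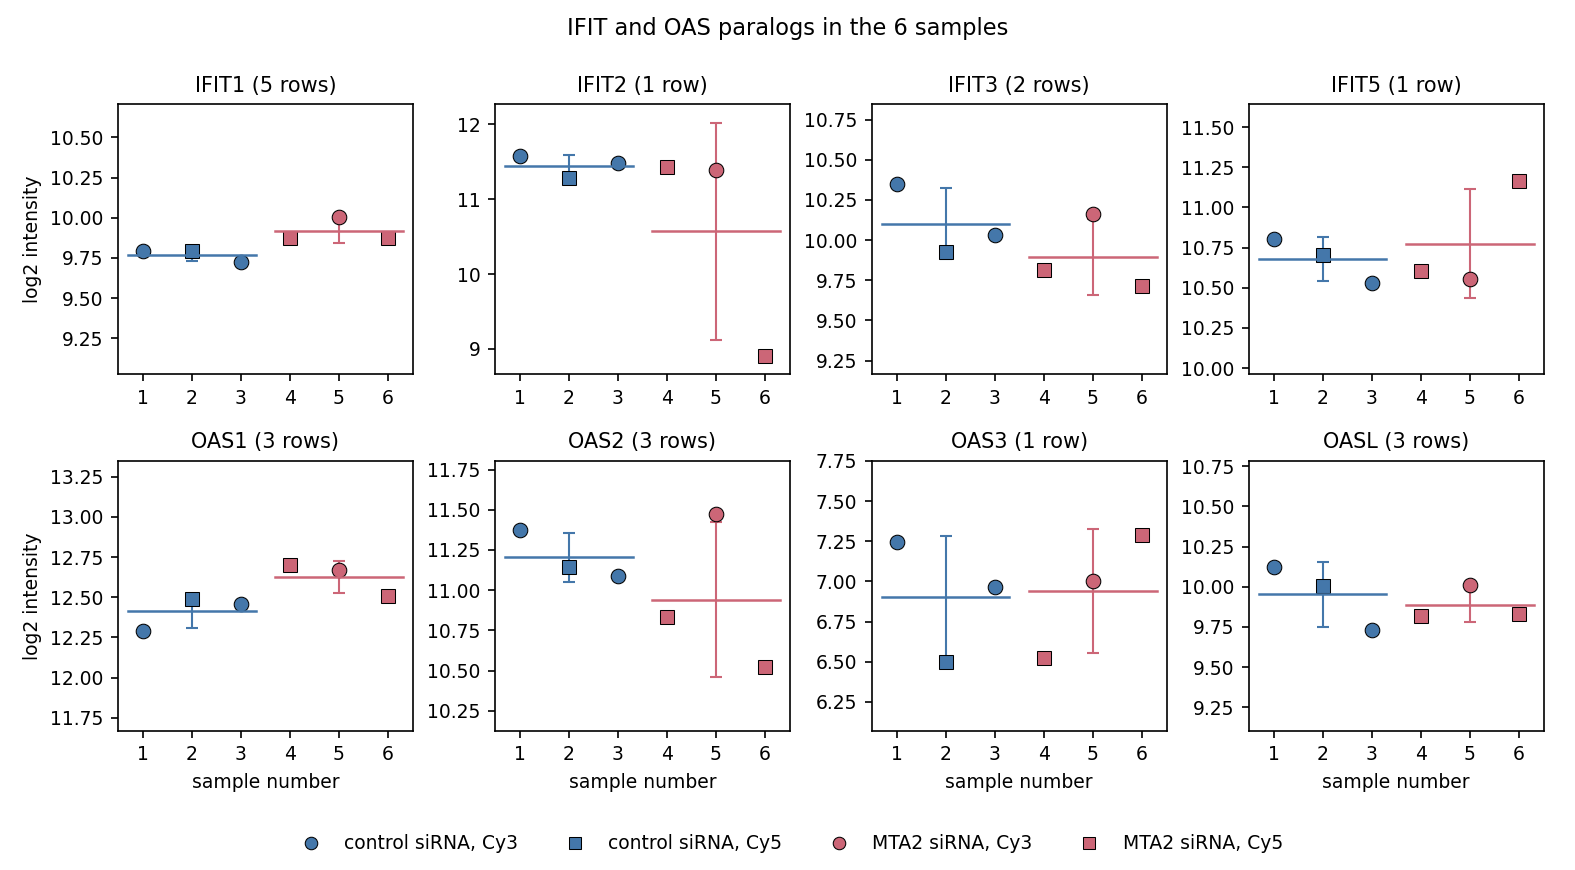
The 4 IFIT genes (top) and 4 OAS family genes (bottom) in each sample. The y axes are log2 intensity, each with its own range, the x axes the sample number, symbols as for the IFITM genes (circles Cy3, squares Cy5), and lines and bars the group mean and SD (n = 3). IFIT1 and OAS1 are the genes whose groups do not overlap, and the SD of IFIT2 comes from the value of 8.90 in sample 6.

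Among the transcription factors of the response, IRF7 stood out by its separation. IRF7 amplifies interferon production once induced. It read 9.07, 9.31 and 9.51 in the controls and 9.76, 9.76 and 9.58 in the samples labelled MTA2 siRNA. All of the latter lay above all controls, though sample 6 only just. The difference was 0.41 (SE 0.17, 95% interval -0.0054 to 0.82, limma adjusted p = 0.943), with 0.48 within Cy3, 0.36 within Cy5 and 0.29 to 0.51 with a sample left out. Its 3 rows gave 0.67, 0.46 and 0.09. In the last of these the groups overlapped, with control sample 3 (9.91) above samples 4 to 6 (9.67, 9.70 and 9.51). The ISGF3 subunits STAT2 and IRF9 differed by -0.014 (SE 0.17) and 0.13 (SE 0.16), and IRF1, a factor also induced by interferon gamma, by 0.061 (SE 0.19), all with overlapping groups.

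TRIM22, a ubiquitin ligase that restricts several viruses, was the remaining member without overlap. It read 10.88, 11.01 and 10.85 in the controls and 11.11, 11.12 and 11.17 in the samples labelled MTA2 siRNA. The spread within the second group was small (SD 0.032), and the difference was 0.22 (SE 0.14, 95% interval -0.12 to 0.56). Both of its rows read higher, by 0.24 and 0.21. In the latter the groups overlapped, with control sample 2 (11.22) above sample 5 (11.07). After averaging rows, the difference was 0.25 within Cy3 and 0.13 within Cy5. The exact permutation p was 0.10, two-sided, for IFIT1, OAS1, IRF7 and TRIM22 alike, the smallest possible. Groups that do not overlap always give this value, so it adds nothing to the separation.

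The sensors and GTPases gave values on either side of 0, none of them passing the adjusted threshold. Of the cytosolic and endosomal RNA sensors and the RNA-activated kinase, DDX58 (RIG-I, now named RIGI) read 9.63, 9.90 and 9.47 in the controls and 9.07, 9.02 and 9.66 in the other group. Samples 4 and 5 were below all controls and sample 6 was not, for a difference of -0.41 (SE 0.23, limma adjusted p = 0.943). It was -0.53 within either dye. TLR3, the endosomal sensor of double-stranded RNA, differed by -0.42 (SE 0.23), and IFIH1 (MDA5) by -0.23 (SE 0.20). Both differences were negative within each dye. TLR3 was -0.25 without sample 4 and -0.26 without control sample 3, and IFIH1 was -0.070 without sample 5 and -0.12 without control sample 2. EIF2AK2, the kinase PKR, differed by -0.085 (SE 0.20), and DHX58, a regulator of RIG-I and MDA5, by 0.35 (SE 0.22), or 0.21 without either control sample 1 or sample 4. The median of these 5 was -0.23, and -0.36 with dye in the model. They did not move together: DHX58 read higher, and EIF2AK2 had opposite signs within Cy3 (-0.34) and within Cy5 (0.33). With dye in the model EIF2AK2 was at -0.0045, and its 3 rows ranged from -0.41 to 0.18. The dynamin-like GTPases MX1 and MX2, which trap viral nucleocapsids, differed by -0.16 (SE 0.23) and 0.12 (SE 0.19). For MX1 the signs were opposite within Cy3 (0.31) and within Cy5 (-0.49).

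ISG15 is a ubiquitin-like modifier, joined to proteins by UBE2L6 and HERC5 and removed by USP18. ISG15 differed by -0.10 (SE 0.25), UBE2L6 by -0.034 (SE 0.19) and HERC6, a relative of HERC5, by -0.063 (SE 0.17). USP18 differed by 0.32 (SE 0.25). HERC5 differed by 0.35 (SE 0.33), but its values followed the dye label, with a fitted dye difference of 0.73 (SE 0.21, limma adjusted p = 0.193), and with dye in the model the siRNA difference was 0.11. The 5 IFI genes lay between -0.096 (IFI44L) and 0.21 (IFI6, an inhibitor of cell death whose 3 rows gave 0.14 to 0.25). IFI27, IFI35 and IFI44 differed by 0.0096, 0.039 and 0.079.

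Of the remaining effectors, ISG20 (an exonuclease) differed by 0.22, SP110 (a nuclear body protein) by 0.13 and XAF1 (a promoter of cell death) by 0.060. PARP9, a partner in ADP-ribosylation, differed by -0.20, and BST2 (tetherin, which holds budding virions at the surface) by -0.11. None of these 5 separated the groups. RSAD2 (viperin) read 1.10, 6.88 and 6.53 in the controls and 0.16, 6.98 and 6.26 in the other group. Its values under 5 were in samples 1 and 4, the samples with the most rows under 5, and no other member row fell that low. Its difference of -0.37 (SE 2.16, 95% interval -5.49 to 4.74) therefore bounds little.

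Differences by dye label were set beside those by siRNA label. With both terms in the model, the absolute dye difference was larger than the siRNA difference in 26 of 39 genes (66.7%), beside 62.4% of all genes. Dye passed an adjusted p of 0.05 (limma) in 1 of 39 (2.56%), IFITM2, beside 0.345% of all genes. The dyes did not overlap for 6 of 39 (15.4%), beside 27.6% of all genes. IFITM2, IFIT3 and BST2 were lower in Cy5, and STAT2, HERC5 and IFI6 were higher. These are values after averaging rows, and the 2 rows of IFIT3 had dye differences of -0.72 and 0.053. For STAT2 the dyes overlapped in both rows, with dye differences of 0.20 and 0.26. They also overlapped in a row of IFI6 with a dye difference of 0.0011. For BST2 the fitted dye difference was -0.76 (SE 0.27, limma adjusted p = 0.241). With dye in the model, 4 of the 39 siRNA differences changed sign. Within Cy3 and within Cy5 the sign was the same for 21 genes (13 higher, 8 lower) and opposite for 18. The 5 genes without overlap are among the 13, by construction. Dye was not balanced over the groups, since 2 of 3 controls are Cy3 and 2 of 3 other samples Cy5.

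**Figure D4:**
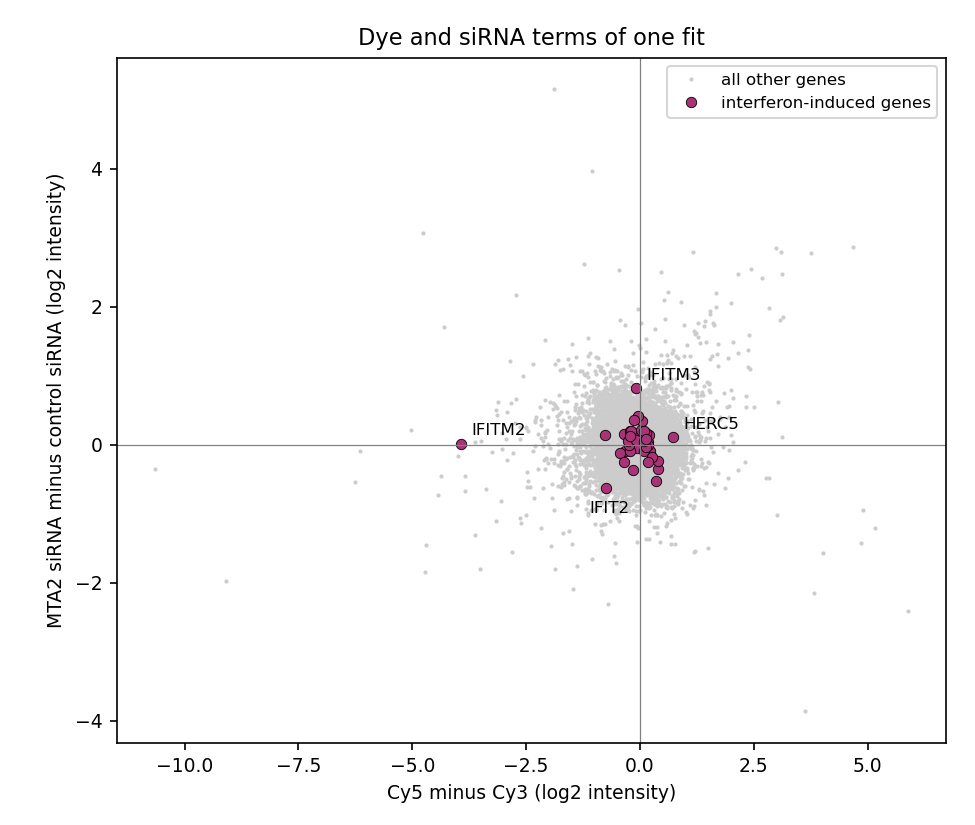
Dye and siRNA terms from the limma fit with both. The x axis is Cy5 minus Cy3 and the y axis MTA2 siRNA minus control siRNA, in log2 intensity; purple points are the 39 genes and grey points all other genes. IFITM2 lies far to the left at a dye difference of -3.94 with an siRNA difference of 0.016, and IFITM3 is the highest of the members.

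Shifts of a whole sample over these genes were small. The median deviation of the 39 from their own means was -0.019, -0.024 and 0.0028 in control samples 1 to 3, and -0.039, 0.088 and -0.0085 in samples 4 to 6. Over all genes it was -0.019, 0.035 and 0.0050 in samples 1 to 3, and 0.032, 0.013 and 0.047 in samples 4 to 6. Sample 5 had the highest value of the 6 for 12 of the 39 genes and sample 3 the lowest for 13. The same counts were not taken over all genes, so these have no background to be read against. The median SD within groups was 0.217, beside 0.245 over all genes.

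Rows of the same gene often disagreed on direction. Of the 17 genes with 2 or more rows, 6 had all rows on the same side of 0 and 11 had rows on both sides. The range of the difference over a gene's rows had a median of 0.42, beside 0.37 over all genes with several rows. Of the members without overlap that had several rows, IRF7 and TRIM22 kept all rows above 0, while IFIT1 and OAS1 did not. Even so, IRF7 and TRIM22 each had a row in which the groups overlapped. IFITM3 has 1 row and so no such comparison.

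**Figure D5:**
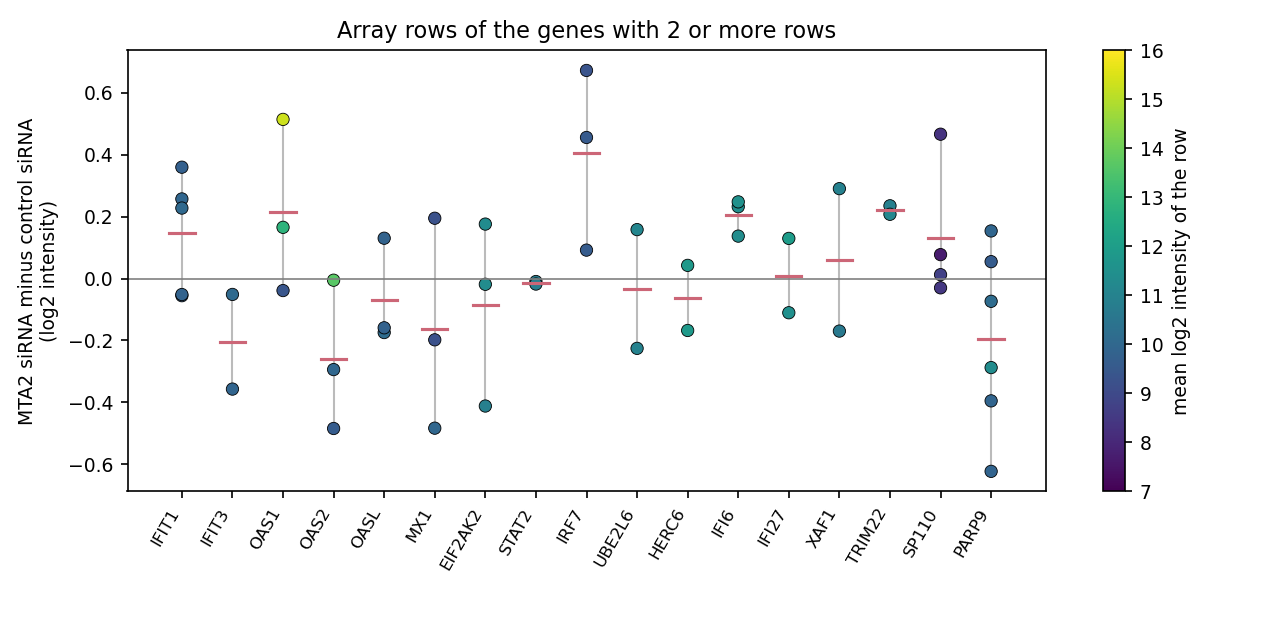
Difference between the groups for each array row of the 17 genes with 2 or more rows. The y axis is MTA2 siRNA minus control siRNA in log2 intensity, points are rows coloured by their mean log2 intensity, and red lines are the gene's difference after averaging. Rows of IRF7 spread from 0.09 to 0.67 and those of OAS1 from -0.04 to 0.51, the latter in the row nearest the top of the scale.

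Members adjoin each other in 6 clusters (at most 3 protein-coding genes apart in RefSeq, GRCh38.p14) that hold 16 of the 39 genes. They are IFI44L and IFI44 on chromosome 1, the IFIT genes on 10, the IFITM genes on 11, the OAS genes on 12, MX2 and MX1 on 21, and HERC6 and HERC5 on 4. Each of these 6 clusters held differences of both signs when dye was left out of the model. With dye in the model the 3 IFITM genes all read above 0.

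The rest of the pathway gave 0 calls as well. Of 95 other listed genes, 59 read higher and 36 lower, with a median difference of 0.056, none at an unadjusted p under 0.05 (with dye in the model 1, TLR8), and 9 (9.47%) without overlap, near the 9.43% of all genes. Of 21 ligand genes, 14 read higher and 7 lower, with a median difference of 0.14, and 0.036 with dye in the model. IFNA6 and IFNA2, interferon alpha genes, differed by 0.71 (SE 0.34) and 0.57 (SE 0.29), and both were lowest in control sample 3, without which the values were 0.34 and 0.25. For both, all Cy5 values lay above all Cy3 values. With dye in the model their siRNA differences were 0.53 and 0.41. IFNA16 differed by 0.45 (SE 0.27), and by 0.26 without sample 6 and 0.27 without control sample 3. Interferon alpha genes have closely similar sequences, and which of them each row detects was not tested.

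Among 10 genes of the receptor and its kinases and STATs, none passed the adjusted threshold. Of these, 7 read higher and 3 lower, with a median difference of 0.10. JAK1 differed by -0.43 (SE 0.19) and IFNAR2, a receptor chain, by -0.27 (SE 0.16). Both read lower in the samples labelled MTA2 siRNA, without overlap between the groups.

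Of 16 sensors and adaptors upstream of interferon, 7 read higher and 9 lower. TLR8 differed by -0.42 (SE 0.18), with no overlap, and TBK1, the kinase that activates IRF3, by -0.34 (SE 0.21). TRIM25, which ubiquitinates RIG-I, differed by -0.26 (SE 0.18). All of its Cy5 values lay below all Cy3 values, and with dye in the model its siRNA difference was -0.16. TBK1 was -0.19 without sample 4 and -0.21 without control sample 2, and TRIM25 was -0.15 without control sample 1 and -0.17 without sample 6. Of 8 inhibitors, 5 read higher and 3 lower. PIAS4 and PTPN2, which restrain STAT signalling, differed by 0.32 (SE 0.17) and 0.31 (SE 0.18) without overlap, PTPN2 by 0.20 without sample 6. PIAS1 differed by 0.69 (SE 0.40), and by 0.33 without control sample 3 and 0.35 without sample 5. Of 40 further interferon-induced genes, 26 read higher and 14 lower. ADAR, which edits double-stranded RNA, differed by -0.41 (SE 0.19) and CMPK2, the neighbour of RSAD2, by 0.37 (SE 0.19), or 0.23 without sample 6, both without overlap, and NMI, which binds STAT proteins, by -0.58 (SE 0.31).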

How the data were processed

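The authors deposited log2 normalised intensities, 34558 rows by 6 samples, per the file headers. Per the labels' protocols, cDNA was labelled with a single-colour kit and hybridised to NimbleGen arrays. How the background was corrected, how arrays were normalised and filtered, and the genome build are not stated in the labels or headers. The series matrix held the same values. Rows were named through RefSeq (33809 by accession, 462 by current and 206 by older symbol, 81 as deposited) and averaged per symbol.

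The siRNA groups were fitted in R 4.3.3 by lmFit and eBayes of limma 3.58.1, without filter or covariate (two-sided, Benjamini-Hochberg over 19148 genes, threshold 0.05), a step tested on simulated data. Dye was added as a second term, and single values also had exact permutation tests in scipy 1.17.1. All differences are MTA2 siRNA minus control on the log2 scale. Arrays give no depth, and the number of samples limits the precision. The members and lists were chosen with earlier results of these data known. Every IFITM, IFIT and OAS gene is given in all 6 samples. So are members without overlap, with an unadjusted p under 0.05 or with an adjusted dye p under 0.05, and up to 3 genes of smallest p per pathway list are named, of which 1 is not reported here. DDX58 and RSAD2 were given per sample after their values were seen. Alternatives covered normalisation, filters, row choice, variance model, weights, dye, thresholds and each sample left out.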

Additional observations from a re-analysis of the deposited data

How the results depend on the processing

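No member passed an adjusted p of 0.05 for siRNA under any of the 17 alternatives run on single members; at an unadjusted p 1 did (719 of all genes), and 3 (947 of all genes) with dye as a block as well, a setting added after the data were seen. Over all genes the count of 0 became 4 in the Cy3 samples alone (2 controls against the single MTA2 siRNA sample 5, assumed to vary like the controls) and 0 to 3 with a sample left out (3 without control sample 2, 1 without MTA2 siRNA sample 6), none of them members. The dye calls moved more: 66 genes became 120 over every array row, 138 with only genes above the median level, 105 after quantile normalisation again, 282 with a trended robust variance, 181 at an adjusted p of 0.10, 3433 at an unadjusted p, and 1 to 35 with a sample left out (1 without control sample 1, 5 without control sample 2, 2 without control sample 3, 35 without MTA2 siRNA sample 4, 3 without sample 5, 34 without sample 6). Among members the 1 dye call became 4 at an unadjusted p and 0 to 1 with a sample left out (0 without samples 1, 2, 3 or 5). The median difference of the members, 0.035, lay between 0.0026 (without sample 5) and 0.10 (without sample 4). MTA2 stayed above control throughout (0.13 to 0.33 with a sample left out). Of 626 single-member values, 605 stayed within the spread between replicates and 21 moved further, with causes not tested. In every alternative 18 members kept their sign. Part of these counts was fixed in advance, so they do not measure stability. The series matrix held the same values, and neither the variance model nor the level filter alters a difference. Row choice alters none for genes with 1 row. No paired analysis was possible because the labels number the samples 1 to 6 and the groups share no number.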
